A study of Homo sapiens with 6 samples.

Results

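Epithelial-mesenchymal state was described with 10 marker genes chosen by name: VIM, FN1, CDH1, CDH2, SNAI1, SNAI2, ZEB1, ZEB2, TWIST1 and EPCAM. All 10 were found among the 17631 genes listed for 6 RNA-seq libraries of MDA-MB-231 cells. This established human line from a triple-negative breast cancer is widely used as a model of a mesenchymal-like tumour cell. The labels also give breast cancer tissue as the source, whereas the treatment and extraction notes describe cultured cells of the line. Cultures received vehicle (3 libraries) or the peptide PDBAG1 at 30 µM (3 libraries), both for 24 h, in Dulbecco's Modified Eagle's Medium with serum. No allele, transgene or second agent was named for either group, and nothing in the labels or methods said whether replicate numbers stand for separate cultures. P values therefore measure the spread between these libraries, which may be technical.

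Epithelial cells hold to each other through E-cadherin (CDH1) at adherens junctions and carry the surface protein EPCAM. Cells that pass through an epithelial-mesenchymal transition lose these proteins and build vimentin filaments (VIM), fibronectin matrix (FN1) and often N-cadherin (CDH2). The transcription factors of the SNAI, ZEB and TWIST families drive this change in development, wound repair and carcinoma, largely by binding E-box sequences and repressing epithelial genes such as CDH1.

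The sequences before the RefSeq starts of VIM and FN1, the markers that rose with PDBAG1, are shown so that their letters can be read beside the expression values. RefSeq promoter entries (GRCh38.p14) matched 5 of the 10 markers, namely VIM, FN1, CDH2, ZEB1 and ZEB2. The windows are 250 bases long and end at the base before the start, 5′ to 3′ on the gene's own strand. Matches on either strand to 8 motifs were sought, and capitals mark those to every motif except CANNTG. The first motifs were CAGGTG (an E-box bound by SNAI and ZEB proteins) and the general E-box CANNTG that includes it. Next came ACGTG and GCGTG (the core of hypoxia-response elements) and TGANTCA (AP-1). The others were TGACGTCA (the cyclic AMP response element), CCAAT and TATAA. The last 3 motifs were added after the sequences were seen.
VIM, chr10:17227991-17228240, plus strand: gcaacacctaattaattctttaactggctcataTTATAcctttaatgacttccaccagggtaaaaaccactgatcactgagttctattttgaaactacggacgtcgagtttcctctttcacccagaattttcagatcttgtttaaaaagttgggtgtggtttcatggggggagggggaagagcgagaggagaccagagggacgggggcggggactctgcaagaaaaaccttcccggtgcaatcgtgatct
FN1, chr2:215436069-215436318, minus strand: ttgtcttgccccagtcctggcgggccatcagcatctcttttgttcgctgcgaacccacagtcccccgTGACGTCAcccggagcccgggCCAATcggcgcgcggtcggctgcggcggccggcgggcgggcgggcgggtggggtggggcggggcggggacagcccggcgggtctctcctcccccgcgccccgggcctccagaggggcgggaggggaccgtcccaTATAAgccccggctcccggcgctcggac

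The FN1 window held TGACGTCA between 183 and 176 bases before the start, CCAAT between 162 and 158, and TATAA between 28 and 24. Over all 35116 promoter entries, TGACGTCA was in 1.65%, CCAAT in 32.0% and TATAA in 18.9%. The VIM window held TATAA alone, on the opposite strand between 217 and 213 bases before the start. Neither window held an E-box of the general form, which was in 61.8% of entries, nor therefore CAGGTG (17.5%), and neither held ACGTG (18.5%), GCGTG (32.2%) or TGANTCA (6.57%). The base composition differed, with 46.0% G and C in the VIM window and 76.4% in that of FN1. Of the 10 VIM transcripts in GENCODE v44, 7 start over 1000 bases after the start used here, and of the 27 FN1 transcripts 16 do, so the windows do not lie before the starts of those transcripts. A match is a description of letters, and binding was not measured.

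Under vehicle the line had a high VIM level and low levels of CDH1. VIM stood at 4270 ± 87.5 TPM (SD, n = 3), rank 14 among the 17631 genes, and took 0.427% of all TPM. TPM is a transcript abundance scaled by transcript length and library total, so levels can be compared between genes. FN1 followed at 52.6 ± 3.03 TPM, ZEB1 at 44.5 ± 3.40 TPM and SNAI2 at 15.6 ± 1.87 TPM. EPCAM at 5.14 ± 1.06 TPM and ZEB2 at 4.49 ± 0.539 TPM were neighbours whose libraries overlapped. SNAI1 stood at 1.79 ± 0.426 TPM, CDH1 at 0.567 ± 0.158 TPM and CDH2 at 0.267 ± 0.0503 TPM (n = 3 each), and TWIST1 was listed at 0, 0.06 and 0.06 TPM. EPCAM and ZEB2 were the only neighbours in this order with overlapping vehicle libraries. With PDBAG1 the order of the means was the same, and the only neighbours with overlapping libraries were CDH2 and TWIST1. The mesenchymal filament gene was therefore abundant in this line, whereas N-cadherin and TWIST1, also counted as mesenchymal, were listed below 1 TPM in every library.

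The comparison of PDBAG1 with vehicle asks how the peptide changed these markers in 24 h. VIM and FN1 rose, whereas the tested transcription factors and EPCAM did not pass the test. Genes with at least 1 TPM in 3 or more libraries were tested with limma on log2(TPM + 1), a scale that understates the change of low genes. A call is a p value under 0.05 after Benjamini-Hochberg adjustment over all 12582 genes tested. Of the 10 markers 7 passed the filter, while CDH1, CDH2 and TWIST1 did not. Of the 7, 2 were called, both higher, and 5 were not. Over all genes tested 37.6% were called, 21.7% higher and 15.9% lower, so 2 of 7 is no larger a share than the background and says nothing particular about the markers as a group. The median log2 fold change was 0.09 for the 7 markers and 0.03 for all genes tested. Over the alternatives the median of the markers ran from 0.049 under quantile normalization to 0.147 without PDBAG1 replicate 1, and that of all genes was -0.00048 under median-of-ratios scaling and -0.020 under quantile normalization. Of the calls over all genes 57.8% were higher, against 49.4% under median-of-ratios scaling and 46.7% under quantile normalization. In bulk RNA a change in the make-up of the culture and a change in RNA per cell cannot be told apart.

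**Figure D1:**
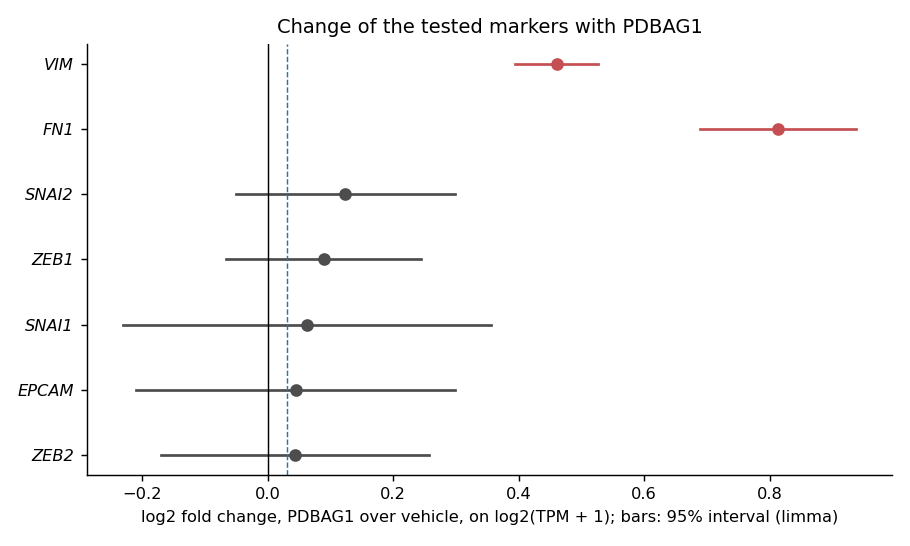
Log2 fold change of PDBAG1 over vehicle on log2(TPM + 1) for the 7 tested markers (points), with 95% intervals from limma (bars); red marks calls at an adjusted p under 0.05, the solid line 0 and the dashed line the median of all genes tested, 0.03. VIM at 0.46 and FN1 at 0.81 lie clear of 0, and the intervals of the other 5 include 0.

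VIM (ENSG00000026025, chromosome 10, 17228241 to 17237593, GRCh38, GENCODE v44) encodes the intermediate filament protein of mesenchymal cells. Its libraries were at 4289, 4346 and 4174 TPM with vehicle and at 5942, 5931 and 5758 TPM with PDBAG1. Every PDBAG1 library was above every vehicle library. The mean rose to 5877 ± 103.1 TPM (SD, n = 3), 1.38 times the vehicle mean. The log2 fold change was 0.46 (standard error 0.03, 95% interval 0.39 to 0.53, limma adjusted p = 1.02e-07), below the study's limit of 1.5-fold. VIM moved from rank 14 to rank 9 of all genes and took 0.588% of all TPM.

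FN1 (ENSG00000115414, chromosome 2, 215360440 to 215436073) encodes fibronectin, a matrix glycoprotein that integrins bind. The vehicle libraries were at 55.5, 53.0 and 49.4 TPM and the PDBAG1 libraries at 86.7, 95.6 and 97.5 TPM. The groups did not overlap, and the mean with PDBAG1 was 93.3 ± 5.74 TPM (SD, n = 3). FN1 had the largest change of the tested markers, with a log2 fold change of 0.81 (standard error 0.06, 95% interval 0.69 to 0.94, limma adjusted p = 1.89e-07). It was the 1 marker past both the p threshold and 1.5-fold, limits that 3.34% of all genes tested passed. In rank it moved from 3229 to 1879. Between the groups 2 of the 7 tested markers had no overlapping libraries, against 47.4% of all genes tested.

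Over the 14 alternative settings the log2 fold change of VIM stayed between 0.43 and 0.48 and that of FN1 between 0.77 and 0.86, with both called in every one. Reads of antisense genes such as VIM-AS1 cannot be told apart from those of their partners unless the counting used strand, which was not stated.

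The SNAI genes encode zinc-finger repressors that share a short SNAG domain at their start. SNAI2 (Slug; chromosome 8, 48917598 to 48921740) was the more abundant of the pair, at 17.7, 14.1 and 15.2 TPM with vehicle and at 16.5, 17.3 and 17.4 TPM with PDBAG1. The groups overlapped because the vehicle library of replicate 1 was the highest of all 6. The log2 fold change was 0.12 (95% interval -0.05 to 0.30, limma adjusted p = 0.253), and without vehicle replicate 1 it was 0.21 and was called (limma adjusted p = 0.0402). SNAI1 (Snail; chromosome 20, 49982980 to 49988886) was near the filter, at 1.31, 1.92 and 2.13 TPM with vehicle and at 2.30, 1.71 and 1.69 TPM with PDBAG1. The libraries of the groups were mixed, with a log2 fold change of 0.06 (95% interval -0.23 to 0.36, limma adjusted p = 0.748) whose sign turned when vehicle replicate 1 was left out (-0.07).

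The ZEB genes encode large repressors with zinc fingers near both ends and a homeodomain between them. ZEB1 (chromosome 10, 31318495 to 31529814) was at 47.9, 41.1 and 44.6 TPM with vehicle and at 42.5, 49.6 and 50.4 TPM with PDBAG1. PDBAG1 replicate 1 lay within the vehicle range, and the log2 fold change was 0.09 (95% interval -0.07 to 0.24, limma adjusted p = 0.357). It was 0.17 without PDBAG1 replicate 1 (limma adjusted p = 0.0554) and 0.034 without vehicle replicate 2, and it was called in neither. ZEB2 (chromosome 2, 144364364 to 144521057) was at 5.10, 4.09 and 4.27 TPM with vehicle and at 4.33, 4.69 and 4.90 TPM with PDBAG1. All 3 PDBAG1 values fell inside the vehicle range, with a log2 fold change of 0.04 (95% interval -0.17 to 0.26, limma adjusted p = 0.763). TWIST1 (chromosome 7, 19020991 to 19117636), a basic helix-loop-helix factor, was listed at 0, 0.06 and 0.06 TPM with vehicle and at 0.13, 0.07 and 0 TPM with PDBAG1. At these levels, and with unknown depth, a change of TWIST1 could not be judged.

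CDH1 (chromosome 16, 68737292 to 68835537) was listed at 0.53, 0.74 and 0.43 TPM with vehicle and at 0.49, 0.77 and 0.84 TPM with PDBAG1. The groups overlapped, and the difference in mean log2(TPM + 1) was 0.12. EPCAM (chromosome 2, 47345158 to 47387601) was the more abundant epithelial marker, at 5.73, 3.92 and 5.78 TPM with vehicle and at 5.15, 5.20 and 5.46 TPM with PDBAG1. All PDBAG1 libraries lay inside the vehicle range, which vehicle replicate 2 extended downwards. The log2 fold change was 0.04 (95% interval -0.21 to 0.30, limma adjusted p = 0.795), and it was -0.11 without vehicle replicate 2.

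CDH2 (chromosome 18, 27932879 to 28177946) was the only marker listed lower in every PDBAG1 library, and it was under the filter. It was at 0.32, 0.26 and 0.22 TPM with vehicle and at 0.11, 0.12 and 0.03 TPM with PDBAG1. The groups did not overlap, and the difference in mean log2(TPM + 1) was -0.22. In a fit without the expression filter the same difference had a limma adjusted p of 0.0209, and with a pseudocount of 0.1 as well, an alternative added after the data were seen, the log2 fold change was -1.0 (limma adjusted p = 0.0276). The files give no depth, so the number of reads behind values of this size is unknown. Among the other cadherins, CDH11 at 58.6 ± 3.60 TPM, CDH24 at 22.0 ± 1.16 TPM and CDH4 at 18.2 ± 0.755 TPM (mean ± SD of 3 libraries here and for the genes of the lists that follow) were all listed higher than CDH2 and CDH1 in vehicle. CDH4, the R-cadherin gene, fell to 14.7 ± 0.507 TPM (log2 fold change -0.29, limma adjusted p = 0.00428), the 1 call among 4 tested genes of a list of 6, a share of 25.0% beside 37.6% of all genes. CDH11 (log2 fold change 0.09) and CDH24 (-0.10) were not called.

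The balance within 3 pairs of markers was compared by their shares of the pair's TPM. SNAI2 made up 89.6% ± 3.05 of SNAI2 plus SNAI1 under vehicle and 90.0% ± 1.92 under PDBAG1 (n = 3 and 3, SD, exact two-sided permutation p = 0.9). ZEB1 made up 90.9% ± 0.450 of ZEB1 plus ZEB2 under vehicle and 91.1% ± 0.315 under PDBAG1 (n = 3 and 3, SD, exact two-sided permutation p = 0.6). In both pairs the shares of the groups overlapped. CDH2 made up 37.6%, 26.0% and 33.8% of CDH2 plus CDH1 in the vehicle libraries and 18.3%, 13.5% and 3.45% in the PDBAG1 libraries. The shares did not overlap (exact two-sided permutation p = 0.1, n = 3 each), and 0.1 is the smallest p that 3 libraries against 3 allow. Adjusted over the 3 pairs, the p values were 0.9, 0.9 and 0.3. Both cadherins were below 1 TPM in every library, so this share rests on low values.

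**Figure D2:**
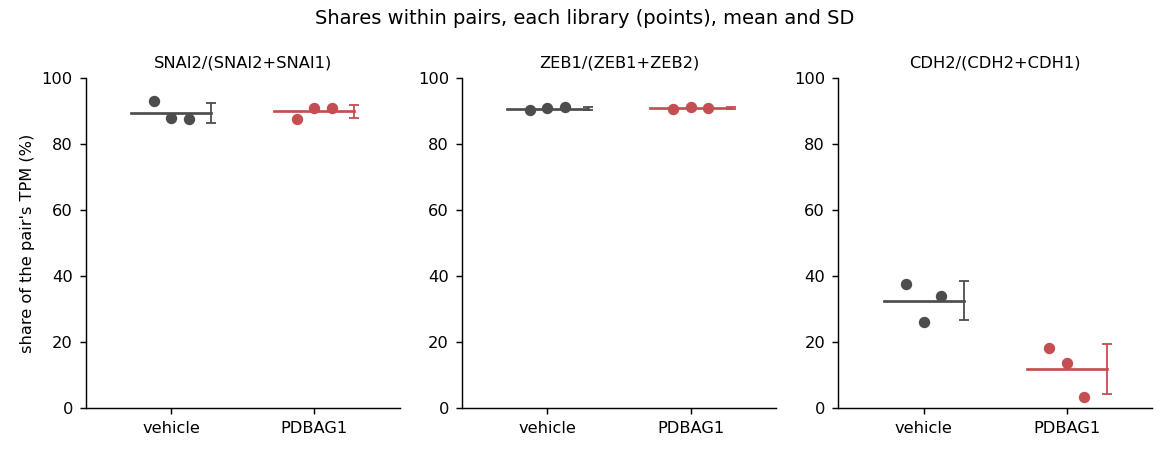
Share of the first gene in the TPM of each pair, in percent, for each library (points), with the mean of 3 libraries as a line and the SD as an error bar. The SNAI2 and ZEB1 shares lie near 90% in both groups, and the CDH2 share lies between 26.0% and 37.6% with vehicle and between 3.45% and 18.3% with PDBAG1.

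Adherens junctions also hold catenins, which link cadherins to actin, and the nectin and afadin system. Of 8 such genes other than cadherins, all tested, 7 (87.5%) were called higher and 0 lower, beside 21.7% called higher over all genes, and the median log2 fold change was 0.25 beside 0.03. None of the 8 passed 1.5-fold. The number called higher was 5 without vehicle replicate 3 and 5 without PDBAG1 replicate 3. Because the lists were chosen with earlier results of these data known, the larger share cannot serve as a test of the list. JUP, which encodes plakoglobin, rose from 32.1 ± 2.31 to 44.8 ± 2.37 TPM, or by 0.47 on the log2 scale. AFDN (afadin) rose by a log2 fold change of 0.43 and ARVCF, a catenin of the p120 family, by 0.39. The most abundant were CTNNA1 (alpha-catenin), which rose from 367 ± 8.29 to 428 ± 14.9 TPM, CTNNB1 (beta-catenin), from 234 ± 6.46 to 266 ± 14.1 TPM, and VCL (vinculin), from 118 ± 2.92 to 144 ± 6.16 TPM. JUP, AFDN, CTNNA1, CTNNB1 and VCL were called in all 14 alternatives. ARVCF was called in 12, its call being lost without vehicle replicate 3 or PDBAG1 replicate 3 (highest limma adjusted p = 0.0654), and CTNND1 in 6, lost among others without replicate 2 or 3 of either group (highest limma adjusted p = 0.140).

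Of 17 other mesenchymal genes of the cytoskeleton, matrix and surface, 14 were tested, 4 were called higher and 2 lower, with a median of 0.10. This share of calls, 42.9%, was close to the 37.6% of all genes and is no result about the list. CD44, the hyaluronan receptor, rose most, from 321 ± 9.24 to 484 ± 19.0 TPM. Its log2 fold change was 0.59 (adjusted p = 1.15e-07 by limma), and it was the 1 gene of the list past 1.5-fold. CALD1 (caldesmon) rose by 0.32 and FBN1 (fibrillin-1) by 0.31 on the log2 scale, and the call of FBN1 was lost without vehicle replicate 2 or 3 or PDBAG1 replicate 3 (highest limma adjusted p = 0.0743). AXL, a receptor tyrosine kinase, fell from 384 ± 9.81 to 320 ± 17.6 TPM (-0.26 on the log2 scale), and THY1 had a log2 fold change of -0.33. LGALS1 at 3056 ± 99.95 TPM, NT5E at 549 ± 23.5 TPM and S100A4 at 489 ± 8.41 TPM in vehicle were the most abundant, and none of them was called. Under quantile normalization LGALS1 (limma adjusted p = 0.0199) and S100A4 (limma adjusted p = 0.0175) were called higher. NT5E was called higher without vehicle replicate 1 or PDBAG1 replicate 1 (lowest limma adjusted p = 0.0305). The number of the list called higher was 6 under quantile normalization and 3 without vehicle replicate 2, against 4.

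Of the 21 genes of the epithelial list, 8 were under the filter, among them the epithelial regulators ESRP1, GRHL2, OVOL1 and OVOL2, and 13 were tested. With 3 called higher and 1 lower (30.8%, no more than the 37.6% of all genes), the median was 0.05, and it was -0.01 under quantile normalization. DSP (desmoplakin, which anchors keratin filaments at desmosomes) rose from 19.9 ± 1.31 to 29.0 ± 2.34 TPM, by 0.52 on the log2 scale (adjusted p = 8.28e-05 by limma), and was called in all 14 alternatives. SPINT1 (log2 fold change 0.35) kept its call in 9 of them and lost it without vehicle replicate 3 or PDBAG1 replicate 1 (highest limma adjusted p = 0.0900). LSR (0.18) kept its call in 4, and of the 6 libraries only PDBAG1 replicate 3 could be left out without losing it (highest limma adjusted p = 0.138). SPINT2, CD24 and EHF, at 248 ± 7.35, 69.2 ± 3.80 and 58.5 ± 3.44 TPM in vehicle, were the most abundant and were not called. EHF was called higher without PDBAG1 replicate 1 (limma adjusted p = 0.0256). In the fit without an expression filter 1 gene of the list was called.

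Of 16 other transcription factors tied to the transition, 9 were tested, 4 were called higher and 2 lower, a share of 66.7% beside 37.6% of all genes. The median was 0.13, and it was 0.024 under quantile normalization. HMGA2, a chromatin protein, rose from 98.7 ± 5.74 to 124 ± 4.06 TPM (0.33 on the log2 scale). SOX9 rose by 0.31 and SOX4 by 0.33 on the log2 scale, the call of SOX4 holding in 6 of the 14 alternatives and being lost, among others, without replicate 2 or 3 of either group (highest limma adjusted p = 0.139). LEF1, a factor that acts with beta-catenin, had a log2 fold change of -0.45. TCF3 and TCF12, which bind E-boxes, were at 54.3 ± 2.34 and 27.8 ± 0.585 TPM with vehicle and were not called. TWIST2, GSC and FOXC2, also of this list, were listed at 0 in most libraries.

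The 12 genes for cofactors and turnover of SNAIL and ZEB proteins were all tested, with 1 called higher and 2 lower, a share of 25.0% that does not exceed the 37.6% of all genes. The median was 0.06, and it was 0.014 under quantile normalization and 0.018 without PDBAG1 replicate 3. GSK3B, whose kinase marks SNAIL for degradation, rose from 15.7 ± 0.970 to 19.2 ± 1.41 TPM, a call lost without vehicle replicate 3 (limma adjusted p = 0.0553). EZH2, a histone methyltransferase, fell from 86.8 ± 4.01 to 68.3 ± 3.62 TPM and HDAC2 from 132 ± 0.749 to 116 ± 7.98 TPM. The call of HDAC2 was lost in the limma fit without a trend (limma adjusted p = 0.0505). HDAC1 at 106 ± 4.71 TPM and CTBP1 at 88.9 ± 2.28 TPM with vehicle were not called. CTBP1 was called lower under median-of-ratios scaling (limma adjusted p = 0.0425).

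Of the 65 tested genes of all related lists, those whose deviations from their own vehicle mean were closest to VIM's over the 6 libraries were JUP, CD44 and AFDN, with mean absolute differences of 0.052, 0.078 and 0.083 on the log2 scale. For FN1 they were PECAM1 (0.097), SPDEF (0.099) and CD44 (0.13). Closeness here describes values over 6 libraries that share their groups.

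The identity of the line was checked with subtype markers. With vehicle, PGR was at or below 0.06 TPM, ESR1 at 2.26 ± 0.240 TPM and ERBB2 at 24.7 ± 0.633 TPM, and the luminal factors FOXA1 and GATA3 were at 0.653 ± 0.148 and 3.59 ± 0.477 TPM. SPDEF, an ETS factor of luminal and secretory epithelium, rose from 19.0 ± 0.695 to 32.1 ± 1.28 TPM, by 0.72 on the log2 scale (adjusted p = 9.02e-07 by limma). It was the 1 call among 4 tested of 7 subtype genes, a share of 25.0% that does not exceed the 37.6% of all genes. Of 6 markers of other cell types, 4 were in the tables, and their summed level was 4.96 to 5.37 TPM with vehicle and 8.93 to 10.5 TPM with PDBAG1. PECAM1 accounted for the rise, from 3.94 ± 0.152 to 8.64 ± 0.680 TPM, by 0.96 on the log2 scale (adjusted p = 2.21e-06 by limma), whereas the endothelial gene VWF stayed at or below 0.09 TPM and the leukocyte gene PTPRC at or below 1.41 TPM in every library. The part of these differences in the marker results was not tested.

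Between 12392 and 12611 genes per library reached 1 TPM. Over the genes tested, the SD of the log2 differences between 2 libraries was 0.14 to 0.18 within a group and 0.28 to 0.30 between groups, and 0 pairs of libraries held identical values.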

How the data were processed

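Total RNA of vehicle- and PDBAG1-treated MDA-MB-231 cells was made into mRNA libraries and sequenced on the BGISEQ-500 platform according to the methods, whereas the labels name Illumina protocols. The authors mapped clean reads with HISAT2 to GRCh38, counted them per gene and describe FPKM. The deposited values are TPM, rounded to 2 decimals and scaled by the authors to a fixed total per library. The submitters' processing notes name GRCh38.p12, HISAT2 2.0.4, Bowtie2 2.2.5 and RSEM 1.2.12, whereas the methods name GRCh38.p13. The annotation release was not given in the sources used here. TPM keeps no depth, so no counting error could be given.

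Samples were grouped by their titles. Genes with at least 1 TPM in 3 or more libraries were tested on log2(TPM + 1) in R 4.3.3 with limma 3.58.1 (lmFit, eBayes with a trend), adjusted by the Benjamini-Hochberg method. Shares within pairs were compared by exact permutation. Only the limma fit was run on simulated data, which were drawn for the genes that passed the expression filter. The filter and the other steps were not run on simulated data. The markers and lists were chosen with earlier results of these data known. Named genes were all markers, up to 3 called genes in each direction and the 3 most abundant of each list, and the 3 genes closest to each called marker. Alternatives are given in the closing section. Some genes of the lists that this rule names are not reported here.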

Additional observations from a re-analysis of the deposited data

How the results depend on the processing

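Of the markers, VIM and FN1 kept direction and call under all 14 alternatives. The number called was 2 in 11 of them, 3 without the expression filter, with or without a pseudocount of 0.1 (CDH2 added) and 3 without vehicle replicate 1 (SNAI2 added), and it was 2 under a replicate block. The labels give replicate numbers no shared origin, and deviations of libraries with a common number correlated at -0.207, 0.012 and -0.078. With 3 libraries per group these values cannot decide whether libraries with a common number share an origin. Over all genes the block gave 3951 calls against 4736. Without the filter and with a pseudocount of 0.1, an alternative added after the data were seen, 2 markers passed 1.5-fold in place of 1.

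The signs of 3 uncalled markers were not stable. Under quantile normalization the log2 fold change was -0.019 for SNAI1, -0.078 for ZEB2 and -0.071 for EPCAM. With each library left out in turn, SNAI1 ranged from -0.067 to 0.15, ZEB2 from -0.0089 to 0.12 and EPCAM from -0.11 to 0.12. ZEB1 (0.034 to 0.17) and SNAI2 (0.054 to 0.21) kept their sign. For these the cause was not tested.

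Among the lists, 2 of the other cadherins were called under median-of-ratios scaling and 2 under quantile normalization, against 1. Of the epithelial list 1 was called without the filter, 2 without the filter and with a pseudocount of 0.1, and 2 to 4 with each library left out, against 4. The cause was not tested. No count test was run, because the values are TPM. Unknown depth limits what can be said of CDH1, CDH2, SNAI1 and TWIST1.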
